A study of Mus musculus with 2 samples.

Results

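The 10 genes described here belong to families known for members that are switched on out of place in T-cell leukaemia, and include the cofactor that joins several of them. They are the basic helix-loop-helix (bHLH) genes Tal1, Tal2 and Lyl1, the LIM-only genes Lmo1, Lmo2, Lmo3 and Lmo4, the LIM cofactor gene Ldb1, and the homeobox genes Tlx1 and Tlx3. They were chosen by name, as the probes that are not controls and carry one of these gene names in the scanner files. This gave 12 of the 55681 probes and 10 of the 34844 gene names on the array. The RNA came from P5424, a mouse T-cell line that the labels give as knocked out for Rag2, a subunit of the antigen receptor recombinase, and for P53, the tumour suppressor. Both samples carry this genotype and are labelled as untreated, with RPMI1640 as the growth medium, so there was no other group to set them against. Each was hybridised to 1 one-colour Agilent array with 60-base probes, and the arrays are numbered by the replicate in the sample titles. The labels do not say whether separate cultures were used, and the error given below may be technical.

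TAL1, TAL2 and LYL1 are bHLH proteins that bind DNA as heterodimers with the widely expressed E proteins. LMO proteins do not bind DNA. They bridge such heterodimers and GATA factors to LDB1, a protein that binds LIM domains, dimerises and can hold distant DNA elements together. In normal blood formation TAL1, LYL1 and LMO2 act in stem cells, progenitors and the erythroid lineage, and they are turned down as thymocytes commit to the T lineage. In human T-cell leukaemia, rearrangements place TAL1, TAL2, LYL1, LMO1, LMO2, TLX1 or TLX3 under foreign control elements. LMO4 and LDB1 are expressed in many tissues.

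A probe was called detected when the scanner software marked its spot as well above background on both arrays, and a gene when any of its probes was. By this rule 2 of the 10 genes, Lmo4 and Ldb1, were detected in P5424 cells, and the other 8 were not. Among gene names on the array that match a protein-coding RefSeq symbol, 54% were detected (9694 of 17947). The number of probes differs between genes. Of the 8 members with 1 probe, 1 was detected (Ldb1), where protein-coding names with 1 probe were detected in 47.5% of cases. Of the 2 members with 2 probes, 1 was detected (Lmo4), where such names were detected in 65.4% of cases. No member spot was marked as an outlier, and no spot on either array was saturated.

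The member probes differ in where they sit on their transcripts, and 4 of them are shown as examples. Positions are those of the deposited files on the mouse build mm9. The Lmo4 probe at base 850 of its transcript (chr3:143856878-143856937, minus strand) is given whole. In 1 of its 3 reading frames it holds no stop codon. The Tlx3 probe at base 723 (chr11:33102440-33102499, minus strand) is also given whole, with capitals on the stretch that reads as a conserved homeodomain motif in an open frame. Of the Tal1 probe (chr4:114744219-114744278, plus strand) and the Lmo2 probe (chr2:103821857-103821916, plus strand) the last 30 bases are given, with capitals on the A-rich end.
Lmo4 probe: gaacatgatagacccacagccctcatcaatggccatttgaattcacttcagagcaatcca
Tlx3 probe: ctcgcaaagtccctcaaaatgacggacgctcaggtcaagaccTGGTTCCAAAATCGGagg
Tal1 probe end: gactctttattgAAAAACAAAAACAAAAAA
Lmo2 probe end: tgtttctatacaaatgtaaatcttAAAAAA
The last 15 bases hold 13 A in the Tal1 probe and 9 A in the Lmo2 probe. Over all probes, 3.65% had at least 9 A there, and 44.3% of those were detected, beside 40.1% of all probes. Exon and untranslated positions of the probes were not analysed here.

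Lmo4 encodes a LIM-only adaptor that, unlike its relatives Lmo1 and Lmo2, is not a common leukaemia gene. Its probe at base 1441 (chr3:143851697-143851756, minus strand) had 14903 intensity units of processed signal on replicate 1, and 14176 on replicate 2. Its probe at base 850, which lies 5.12 kb away, had 4365 units on replicate 1 and 5413 on replicate 2. On the log2 scale relative to the 75th percentile of each array, where 0 stands for 324 units on replicate 1 and 299 on replicate 2, the probe at base 1441 had a level of 5.55 ± 0.03 and the probe at base 850 a level of 3.97 ± 0.30 (SD, n = 2 arrays). Both probes were well above background on each array. A brighter probe does not show more transcript, so the probes are not ranked.

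Ldb1 encodes the partner that LMO and LIM homeodomain proteins bind. Its probe lies at base 1832 of the transcript (chr19:46107487-46107546, minus strand). It had a signal of 5717 units on replicate 1 and 4882 on replicate 2, a level of 4.09 ± 0.08 on the same log2 scale (SD, n = 2). Its background-subtracted signal was 476 times the SD of the background on replicate 1 and 385 times on replicate 2. The same ratio was 269 and 347 for the Lmo4 probe at base 850, and 927 and 985 for the one at base 1441.

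The other LIM-only genes were not well above background. Lmo2, the adaptor of the erythroid and progenitor complexes, had a signal of 6.87 units on replicate 1 and 8.20 on replicate 2. Lmo1, normally a gene of the nervous system, had 7.28 and 8.60 units on replicates 1 and 2. The 308 negative control spots had a median of 6.55 units on replicate 1 and 7.504 on replicate 2, with 95% of them below 7.28 and 8.57 units. Where a signal was not positive and significant, the software wrote a surrogate value in its place, so such signals have no order among themselves. This was so for 5 of the 9 undetected member probes on each array: those of Tal2, Lmo1, Lmo2 and the Lmo3 probe at base 1576 on both, the Lmo3 probe at base 172 on replicate 1, and Tlx3 on replicate 2. After subtraction of its background, the Lmo1 spot was negative on both arrays, at -6.19 and -13.3 units. Lmo3, a neural relative of Lmo1, was measured by 2 probes that lie 56.2 kb apart. The one at base 1576 had 7.02 and 8.33 units and the one at base 172 had 6.57 and 8.14 units, so neither probe was well above background on either array.

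All 3 bHLH genes were below the detection limit. The probe of Tal1 had a signal of 13.5 units on replicate 1 and 17.98 on replicate 2, and that of Lyl1 had 16.4 and 17.3 units. Tal2, a close relative of Tal1 with a short protein, had 7.46 and 7.57 units. The lowest signal of any probe marked well above background was 28.9 units on replicate 1 and 31.1 on replicate 2, so the 9 undetected member probes, which spanned 6.57 to 16.4 units on replicate 1 and 7.57 to 17.98 units on replicate 2, all lay under it. Their signals are bounds on a level and are given without one.

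Neither TLX gene was detected. TLX1 and TLX3 are homeodomain proteins needed for spleen and nerve development and are silent in normal T cells. Tlx1 had a signal of 15.4 units on replicate 1 and 9.55 on replicate 2. Tlx3 had 9.03 and 7.57 units.

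**Figure D1:**
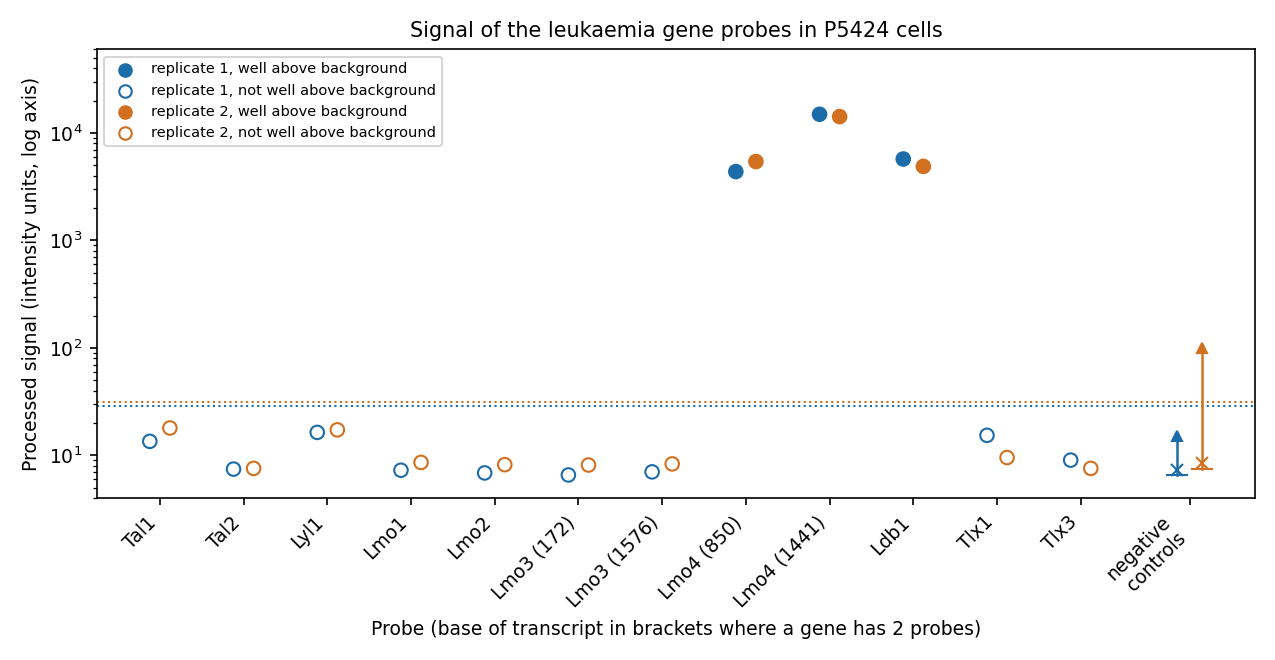
Processed signal in intensity units (log axis) of the 12 probes on replicate 1 (blue) and replicate 2 (orange), filled where well above background. For the negative controls the bar marks the median, the cross the 95th percentile and the triangle the highest spot, and dotted lines mark the lowest signal of any probe well above background (28.9 and 31.1 units). The 2 Lmo4 probes and the Ldb1 probe lie between 4365 and 14903 units, and all other probes lie at or below 17.98 units.

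Among the undetected genes, Tal1, Lyl1 and Tlx1 were brighter than over 98% of the negative control spots on both arrays. The share of all probes that pass this cut is not given here, so it describes these spots only. After background subtraction the Tal1 spot was brighter than 307 of 308 negative control spots on each array, and the Lyl1 spot was brighter than 308 and 306 of them. The Tlx1 spot was brighter than 308 and 303 of them. These 3 probes were also the undetected ones that the software marked as positive and significant on both arrays, a weaker criterion. Tlx3 and the Lmo3 probe at base 172 met it on 1 array, and the remaining 4 undetected probes on neither. Under that criterion 5 of the 10 genes would be counted, where 69.2% of the protein-coding names were (12425 of 17947). By the main rule 9694 of those names were detected, so many other undetected names pass it too. Passing it is not particular to Tal1, Lyl1 and Tlx1.

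The signals of Tal1, Lyl1 and Tlx1 were low beside the background SD that the software used for each spot. That SD is not the spread of the negative control spots. On replicate 2 the Tal2 probe, at 0.40 times its SD, was brighter than 95.1% of them. The background-subtracted signal was 0.89 and 1.12 times the SD of the background for Tal1, 0.996 and 1.08 times for Lyl1, and 1.23 and 0.91 times for Tlx1 on replicates 1 and 2. Among probes marked well above background, 99% had a ratio over 2.11 on replicate 1 and over 2.55 on replicate 2. The signals of these 3 probes thus lay above nearly all negative control spots but under the well above background criterion. For all 8 undetected genes, a low level cannot be told from none by these calls at this depth of signal.

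**Figure D2:**
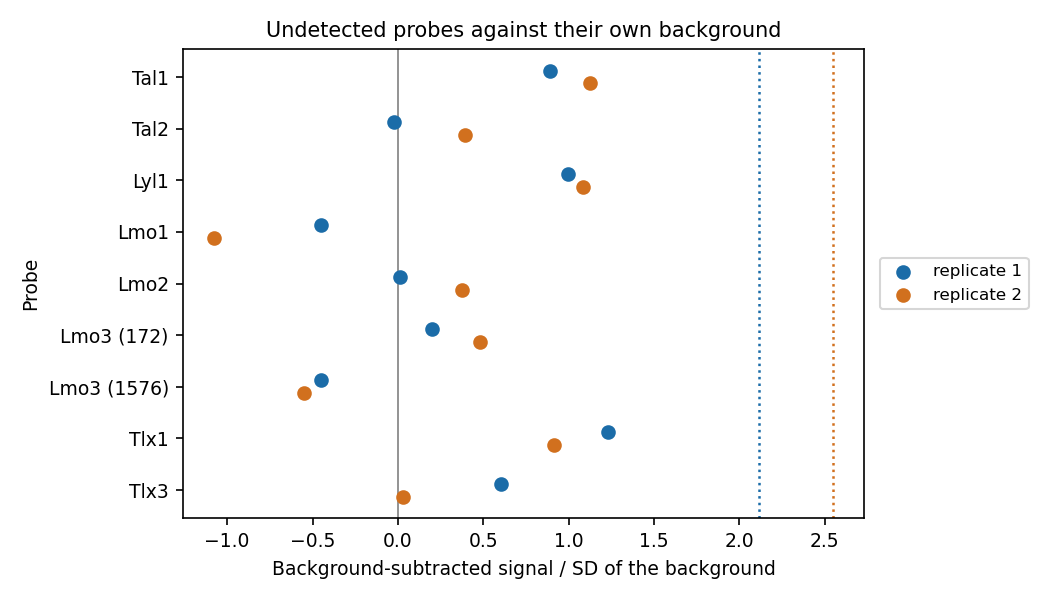
Background-subtracted signal divided by the SD of the background (x axis, no unit) for the 9 undetected probes on replicate 1 (blue) and replicate 2 (orange). Dotted lines mark the ratio that 99% of the probes well above background exceed (2.11 and 2.55), and no undetected probe is above 1.23.

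The GC content of detected and undetected member probes overlapped. It was 55% for the Ldb1 probe and 45% and 35% for the Lmo4 probes, and the undetected probes ranged from 33.3% (Lmo1) to 55% (Lyl1). Among all probes within 3 percentage points of a member probe, 37.2% to 48.1% were detected. The undetected Lmo2 probe and the detected Lmo4 probe at base 1441 share a GC content of 35%. The part of GC content in the calls was not tested.

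The arrays differed little for Ldb1 and for 1 of the Lmo4 probes, and more for the other. The difference of replicate 2 minus replicate 1 was 0.05 for the Lmo4 probe at base 1441, 0.43 for the Lmo4 probe at base 850 and -0.11 for Ldb1 on the scaled log2 values. The median absolute difference over all 22321 detected probes was 0.18, and 16.4% of those differed by more than the Lmo4 probe at base 850. Of the detected probes within 1 log2 unit of its level, the median absolute difference was 0.15. With 1 group of 2 arrays there was no test for a single gene.

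**Figure D3:**
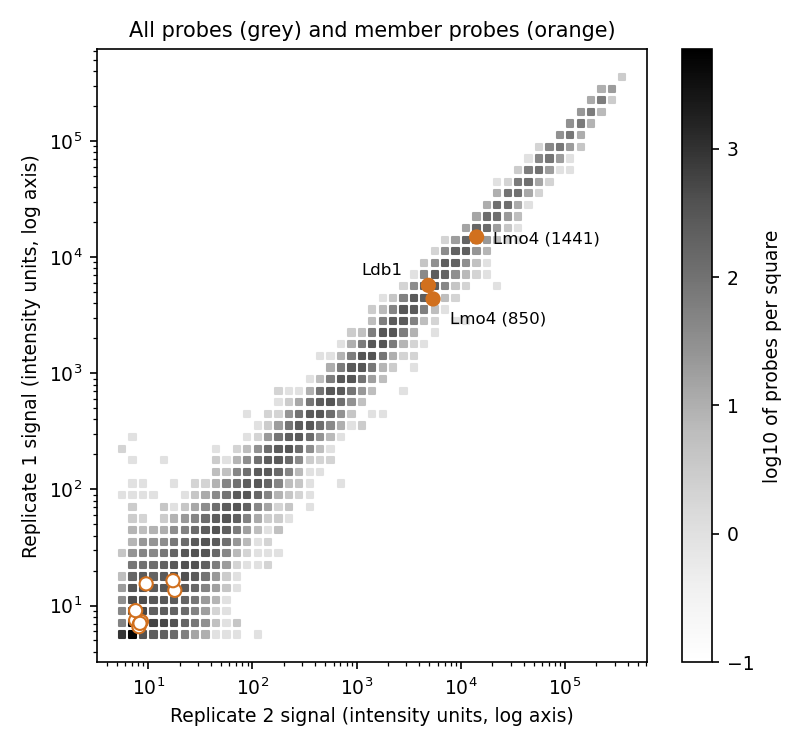
Signal on replicate 2 (x axis) against replicate 1 (y axis), both in intensity units on log axes, for all probes (grey squares, darker for more probes) and the 12 member probes (orange, filled where detected). The Ldb1 and Lmo4 probes lie in the band of all bright probes, and the 9 undetected probes lie in the corner at or below 17.98 units.

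The lists of related genes below are read beside the shares over all protein-coding names, 54% detected and 69.2% positive and significant. Of 7 DNA-binding partners, 6 were detected. The E protein genes Tcf3 (signals of 7268 and 6115 units, level 4.42 ± 0.09), Tcf12 (4333 and 3755 units, 3.70 ± 0.06) and Tcf4 (1058 and 1159 units, 1.83 ± 0.18, with 1 of its 2 probes) encode the heterodimer partners of TAL1 and LYL1. Gata3, the T-lineage GATA factor, had 5501 and 5509 units and a level of 4.14 ± 0.09. Runx1, which shares binding sites with TAL1 in leukaemia cells, had 5323 and 3639 units and a level of 3.82 ± 0.30. Gata1, the erythroid GATA factor, had 217 and 211 units and a level of -0.54 ± 0.05, and Gata2, that of progenitors, was not well above background. All errors are SDs over the 2 arrays.

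On the LDB1 side, 4 of 5 genes were detected. Ssbp2, Ssbp3 and Ssbp4 encode single-stranded DNA-binding proteins that bind LDB proteins and keep them from degradation. Ssbp2 had 9579 and 9997 units and a level of 4.97 ± 0.13, with all 3 of its probes detected. Ssbp3 had 4907 and 3405 units (3.72 ± 0.29), and Ssbp4 had 7551 and 6737 units (4.52 ± 0.03). Rlim, which encodes a ubiquitin ligase for LDB1, had 128 and 133 units (-1.26 ± 0.12). Ldb2, the close relative of Ldb1, was not well above background.

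Corepressors and inhibitors were also largely detected. Of 8 corepressor genes 7 were detected, among them Cbfa2t3, whose product ETO2 joins TAL1 complexes, at 1700 and 1461 units (2.34 ± 0.07, with 1 of its 3 probes), and Kdm1a, a histone demethylase, at 10361 and 8109 units (4.88 ± 0.17). Runx1t1 was not. Of the 4 Id genes, whose products bind E proteins and keep them off DNA, Id1 (1865 and 1424 units), Id2 (2177 and 1728 units) and Id3 (249 and 281 units) were detected and Id4 was not.

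LIM homeobox genes, whose products compete with LMO proteins for LDB1, were detected in 3 of 12 cases. Lhx2, which acts in brain and in blood progenitors, had 2663 and 2706 units (3.11 ± 0.10). Lhx6, known from interneurons, had 2391 and 2697 units (3.03 ± 0.21) with 1 of its 3 probes, and Isl2, of motor neurons, had 112 and 95.5 units (-1.59 ± 0.07). Lhx1 was well above background on 1 array, and Lhx3, Lhx4, Lhx5, Lhx8, Lhx9, Isl1, Lmx1a and Lmx1b on neither. With the positive and significant criterion 7 of the 12 were counted, where 69.2% of protein-coding names were.

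None of the close relatives of the undetected members was detected. Nhlh1 and Nhlh2, bHLH genes of neurons, and Tlx2 gave 0 detected of 3, and 1 of them (Nhlh1) passed the weaker criterion. Of 13 other transcription factor genes known from human T-cell leukaemia, 3 were detected. Myb had 24333 and 18700 units (6.10 ± 0.18) and Myc had 8758 and 7524 units (4.71 ± 0.07), both genes of dividing thymocytes. Nkx2-2 had 72.0 and 89.2 units (-1.96 ± 0.30) with 1 of its 2 probes. Hoxa9 was well above background on 1 array. Nkx2-1, Nkx2-5, Hoxa5, Hoxa10, Hoxa11, Mef2c, Olig2, Spi1 (named Sfpi1 on the array) and Mycn were on neither.

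Genes that TAL1 and LMO complexes are known to bind or raise were detected in 2 of 11 cases. Kit, the stem cell factor receptor, had 647 and 573 units (0.97 ± 0.04). Klf1, an erythroid factor, had 72.8 and 63.6 units (-2.19 ± 0.05). The 9 others were not well above background on either array, among them Aldh1a2, a target in human T-cell leukaemia, Arid5b, Hhex, Gfi1b and Nfe2, which act in blood cells, and the erythroid genes Epb4.2 and Alas2. With the positive and significant criterion 3 of the 11 were counted, with Nfe2 added. The lists differ in size and in how widely their genes are expressed, so their shares describe these arrays only.

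**Figure D4:**
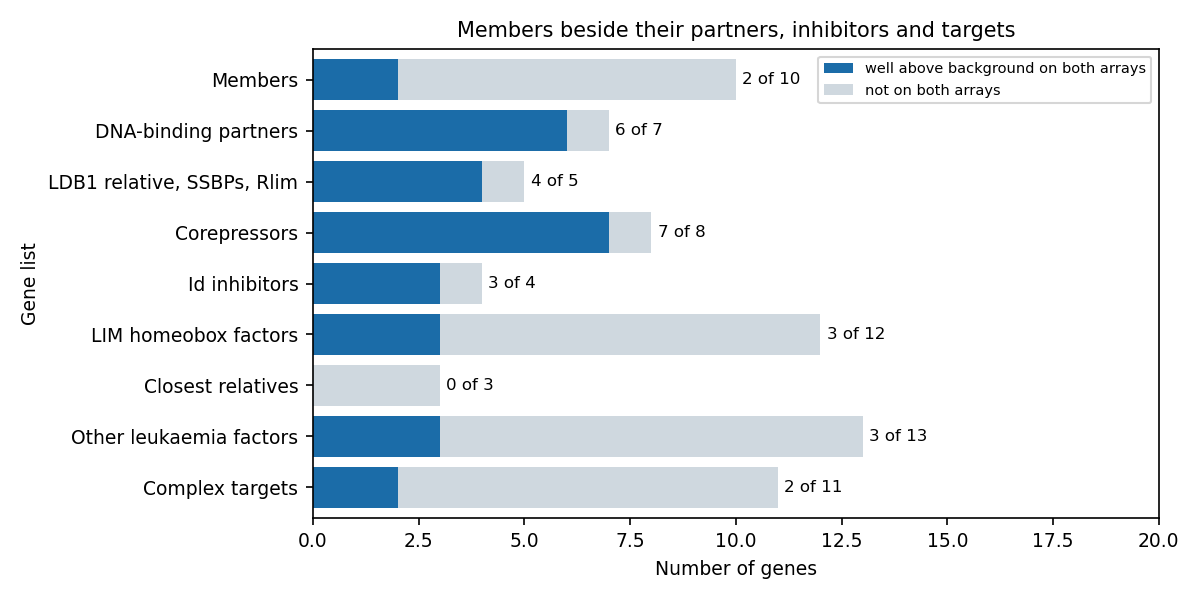
Number of genes (x axis) in each list that were well above background on both arrays (blue) or not on both (grey). The members have 2 of 10 genes detected, the DNA-binding partners 6 of 7, the LDB1 relative and LDB1-binding genes 4 of 5, the corepressors 7 of 8 and the complex targets 2 of 11.

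The labelled cell type was checked with markers. All 12 T-lineage markers were detected. Of the lineages that normally use Tal1, Lyl1 or Lmo2, the erythroid list had 2 of 5 detected (Klf1 and Epor) and the endothelial list 2 of 4 (Pecam1, and Kdr with 1 of its 2 probes), while the defining genes Hbb-b1, Hba-a1, Cdh5 and Tek were not well above background. The B-cell, myeloid and other-tissue lists had 1 of 5, 2 of 5 and 1 of 5 detected. With the positive and significant criterion these lists had 4, 4 and 5 of 5, the erythroid list 3 of 5 and the endothelial list 2 of 4. Fewer cells of a type and less RNA per cell cannot be told apart in such bulk RNA, and the part of other cell types in these calls was not tested.

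Counted by gene name, the neighbours of the member probes were detected about as often as names on the array in general. Among probes within 50 kb of a member probe on mm9, 15 of 28 were detected, beside 40.1% of all probes. Of these 15, 5 lie at the Tlx3 locus. By name, 10 of 20 were detected, where 46.1% of all gene names on the array were. Within 20 kb it was 2 of 7 names, and 2 of the 10 lie beside the detected Ldb1. Stil, a centriole gene that in human leukaemia is fused to TAL1 by a deletion, lies 28.8 kb before the Tal1 probe and had 1088 and 1019 units (1.76 ± 0.02). On the other side of Tal1, both probes of Pdzk1ip1 lay at 5.80 to 6.97 units and were not detected.

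At the Tal2 locus the probe of Gm12471, a gene model on the opposite strand, lies 4.49 kb from the Tal2 probe. It had 5824 and 5716 units (4.21 ± 0.06), while Tal2 stayed at 7.46 and 7.57 units. At the Tlx3 locus Ranbp17, the gene in which TLX3 breakpoints lie in human leukaemia, had 6.14 and 9.88 units at a distance of 10.1 kb and was not detected. Npm1, a nucleolar gene 45.4 to 49.8 kb away, was detected with all of its 4 probes within that distance, at 2081 to 123458 units. The transcript ENSMUST00000109354 between these probes was detected as well.

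At the Lyl1 locus Trmt1, a tRNA methyltransferase gene, had 14863 and 12219 units at its brighter probe, 4.85 kb before that of Lyl1. Its other probe, 13.8 kb before, had 85.9 and 134 units and was detected too. The nearest probe of Nfix, on the opposite strand and 0.169 kb past Lyl1, had 6.38 and 7.31 units and was not detected. Farther out, Nacc1, a transcriptional corepressor gene (2675 and 2667 units at its brighter probe), Ier2, an immediate early gene (52.8 and 73.8 units), and the transcript ENSMUST00000098571 (587 and 410 units) were detected. Around the detected Ldb1 probe, Hps6 (1104 and 925 units) and Pprc1 (276 and 195 units) were detected among 5 gene names. Beside Lmo2, the only probe within 50 kb was not detected, and there was no probe of another gene name within 50 kb of those of Lmo1, Lmo3, Lmo4 and Tlx1.

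**Figure D5:**
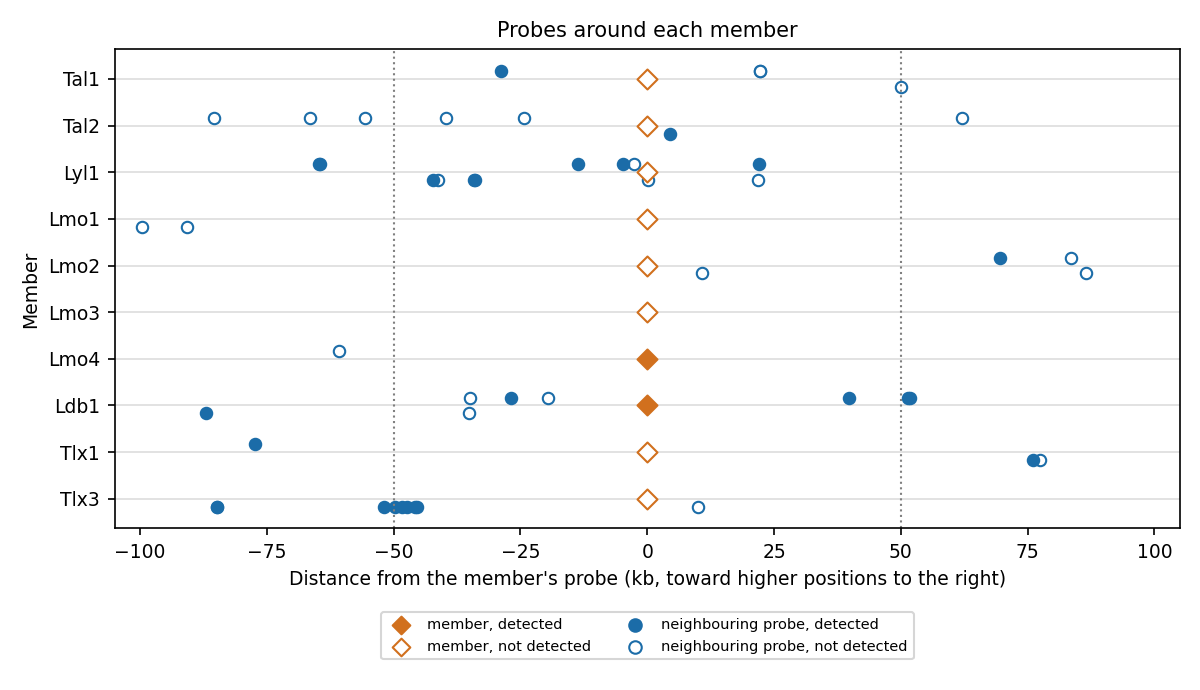
Probes within 100 kb of each member (circles, x axis in kb from the member probe, filled where detected, above the line for the plus strand and below it for the minus strand) and the member itself (diamond). Lmo3 and Lmo4 are centred on their probes at bases 172 and 850, and dotted lines mark 50 kb. Undetected Tal1, Tal2, Lyl1 and Tlx3 each have a detected probe within 50 kb.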

How the data were processed

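RNA of 2 P5424 samples was hybridised to 1-colour arrays. The intensity values are those the authors deposited, made with Agilent Feature Extraction 10.5.1.1 per the submitters' processing notes. Per the file headers, spatial and multiplicative trends were removed, surrogate signals were used near background, and probe positions are on mm9. The authors also deposited a table of log2 values whose scale and centring are unstated, used here as an alternative. Its columns have a floor at 5.13 and a median of 5.18 each.

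Outlier spots were left out (182 on replicate 1 and 186 on replicate 2). Log2 of the processed signal minus the 75th percentile of each array over all non-control probes gave the levels. The fields for well above background and for positive and significant signal are 0 or 1 per spot; a probe on several spots needed 50% of them. For a list gene with several detected probes, the value is that of the probe with the highest mean. Of 99 list entries, all 99 were found on the array by name or RefSeq synonym (assembly GRCm38.p6). The members and lists were chosen with earlier results of these data known. By the naming rule every member and each of its probes is named, list genes may all be named, with values for detected ones, and detected neighbours within 50 kb are named. There was 1 group, so no test between groups was made. A planned comparison of the proteins was not run because no protein sequences were used here. Scripts were tested on simulated data. Tools were Python 3.11.15, pandas 2.3.3, numpy 2.4.6, R 4.3.3 and limma 3.58.1 (normexp, offset 50). The number of arrays limits the precision. Some genes of the lists and loci are counted but not reported here by name.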

Additional observations from a re-analysis of the deposited data

How the results depend on the processing

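Lmo4 and Ldb1 were the detected members when either array sufficed, when all probes of a gene had to be detected, when the signal had to exceed the highest negative control spot on both arrays, in the authors' table at over 1 above its floor, when probes were named by accession and without replicate 1 or 2 (2 genes each). That highest control spot had 15.1 units on replicate 1 and 100.6 on replicate 2. On replicate 1 Lyl1 (16.4 units) and Tlx1 (15.4 units) exceeded it as well. The count was 5 with a positive and significant signal and 5 above the 95th percentile of the negative controls, both times with Tal1, Lyl1 and Tlx1 added. With a positive and significant signal 69.2% of protein-coding names were counted. The shares of all names under the negative control and authors' table settings are not given here. With a positive and significant signal the LIM homeobox list had 7 genes, the close relatives 1, the other leukaemia factors 5 and the complex targets 3. The B-cell, myeloid, erythroid and other-tissue markers then had 4, 4, 3 and 5. Without 1 replicate the LIM homeobox and other leukaemia lists had 3 to 4 genes each, the B-cell markers 1 to 2 and the myeloid markers 3, against 1 and 2 on both arrays. Leaving out 1 replicate did not change the counts of the other lists. Neighbouring gene names detected were 2 within 20 kb and 18 within 100 kb, of 7 and 35. Levels depend on the scaling by construction. With the 75th percentile over detected probes they were 0.45 and 2.03 for the Lmo4 probes at bases 850 and 1441 and 0.57 for Ldb1, with the array median 7.96, 9.54 and 8.08. Normexp gave 3.60 and 5.14 for the Lmo4 probes, and the authors' table, set to its own 75th percentile, gave 5.63 for the one at base 1441. Without 1 replicate the levels were 3.75 to 4.18, 5.52 to 5.57 and 4.03 to 4.14. The replicate difference of the Lmo4 probe at base 1441 changed sign with the array median (-0.18) and with normexp (-0.037), where the median difference of detected probes was -0.23 and -0.0019. No paired analysis was possible because the arrays form 1 group. The signal over background limits the calls: no probe under 28.9 units on replicate 1 or 31.1 on replicate 2 was marked well above background.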

Other observations

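Promoter composition was looked at after the calls were known, in RefSeq windows of 250 bases before to 50 after each start on GRCm38.p6, and a window was called CpG-rich at a GC content of at least 55% and an observed over expected CpG ratio of at least 0.6. Protein-coding genes with at least 1 such window were detected on both arrays in 77.8% of cases (5293 of 6806), and those with none in 34.0% (2553 of 7516). Of the 9 members with a window, 4 had a CpG-rich one: Lmo4 and Ldb1, which were detected, and Tal1 and Lmo1, which were not. Over all protein-coding names with a window, 6806 of 14322 had a CpG-rich one. Lmo1 had 66.3% to 74.3% GC in its 2 windows and CpG ratios of 0.88 to 0.95. Lmo4 had 72.7% to 81.3% GC in its 3 windows and ratios of 0.78 to 1.06. The windows of Tal2, Lyl1, Lmo3, Tlx1 and Tlx3 did not meet the definition, with Tlx1 at a ratio of 0.593 and Tlx3 at a GC content of 51.7% just outside it. No window of Lmo2 was used. The part of promoter composition in the calls was not tested.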
